A study of Mus musculus with 24 samples.

Results

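The 10 genes described here belong to the Notch pathway and were followed across all 24 libraries of a study of the arteriolar niche of blood stem cells in mouse bone marrow. The members were the 4 receptor genes Notch1, Notch2, Notch3 and Notch4, the 3 ligand genes Dll4, Jag1 and Jag2, and the 3 target genes Heyl, Hes1 and Nrarp. They were taken by gene symbol, and all 10 of 10 were found once among the 23879 symbols of each library. The libraries hold polyA RNA of marrow endothelial cells (BMEC, the lining of vessels) and marrow stroma (BMS, the supporting mesenchymal cells) from C57BL/6J mice, in 8 groups of 3, that is 4 settings for each cell type. The first was a culture titled BMEC-Akt1 or BMS-Akt1, called culture here. Another pair of culture groups was titled CC-Alone and CC+HSPC, called alone and with HSPC here, where HSPC are the hematopoietic stem and progenitor cells kept on the niche cells. The last setting was cells in vivo. All 18 titles of cultured cells carry the name Akt1, a kinase gene, with no word on what was done to it, and the 6 in vivo titles lack it. That difference, and any difference in isolation, cannot be told apart from the setting when in vivo cells are compared with cultured ones. The value columns of endothelium in vivo are headed Young, with no age. The number of animals and the way the cells were sorted are not given in the sources used here.

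Notch is a pathway between touching cells. A ligand of the Delta or Jagged type on 1 cell pulls on a Notch receptor on its neighbour, enzymes cut the receptor, and the freed inner part enters the nucleus, where it joins RBPJ and switches on targets such as the Hes and Hey repressors and Nrarp. Fringe enzymes (Lfng, Mfng, Rfng) add a sugar to the receptor that alters which ligand type it answers to. In vessels, Dll4, Notch1 and Notch4 are known from endothelial cells and guide sprouting and arterial fate, Notch3 and Heyl are best known from the mural cells around vessels, and Notch ligands on niche cells are studied as signals to blood stem cells.

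Values are FPKM (fragment counts scaled by the length of the transcript and the size of the library), so they are per length and can be set side by side between genes. Levels are given as the 3 libraries of a group in the order of replicates 1 to 3, or as mean ± SD (n = 3). Differences were taken on log2(FPKM + 1) with their SE, a scale that understates the change of low genes. A gene was called when the limma adjusted p over all tested genes was under 0.05. The labels do not state whether replicates are separate cultures or animals, so these p-values measure the spread between libraries, which may be technical. Read depth was not recoverable, and library totals ran from 1421447 to 1808592 FPKM.

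Libraries of 1 group correlated across genes at 0.9947 or more, except in the first cultures, where the lowest values were 0.9624 for endothelium and 0.9539 for stroma. Cultured endothelial replicate 2 differed from replicates 1 and 3 in arterial genes: their 8 listed markers summed to 1453 FPKM there and to 10397 and 10769.6 in replicates 1 and 3. The same sum was 1336 to 1476 in endothelium alone, 648 to 731 with HSPC and 1423 to 1576 in vivo. Replicate 2 was thus near the groups alone and in vivo, and replicates 1 and 3 were above all of them. Cultured stromal replicate 1 stood apart in matrix genes, with a sum over 8 markers of 6111 against 33182 and 32728. The defining markers went with the labels. The 10 pan-endothelial markers summed to 9295 FPKM or more in every endothelial library and to at most 373 in the stromal ones. That highest stromal value was cultured replicate 1. Cultured endothelial replicates 2 and 3 and cultured stromal replicate 3 carried Xist at 1006 FPKM or more and listed the Y-linked Ddx3y at 0, the reverse of the other 21 libraries. Stab2, a receptor of marrow sinusoids, was at 1973, 1865 and 2213 FPKM in endothelium in vivo and at most 1.87 in cultured endothelium.

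Notch1, the receptor gene known from endothelium and from lymphoid progenitors, was an endothelial gene in all 4 settings. Its 3 libraries were at 220.0, 156 and 182 FPKM in cultured endothelium, 244, 256 and 237 alone, 262, 241 and 248 with HSPC and 377, 381 and 422 in vivo. In stroma they were at 7.95, 34.5 and 36.7 in culture, 10.1, 8.53 and 9 alone, 7.84, 10.2 and 8.83 with HSPC and 87.7, 49.7 and 67.3 in vivo. The endothelial and stromal ranges did not touch in any setting. In vivo libraries were the highest of each cell type, the groups alone and with HSPC did not differ beyond their spread, and cultured stromal replicate 1 was far below replicates 2 and 3.

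Notch4, a receptor gene largely restricted to endothelium, was on the same side in all 4 settings. Endothelial libraries were at 371, 78.1 and 76.5 FPKM in culture, 173, 161 and 165 alone, 239.9, 219.7 and 227 with HSPC and 279, 264 and 314 in vivo. Stromal ones were at 9.68, 22.4 and 22.6 in culture, 0.19, 0.24 and 0 alone, 0.34, 0.77 and 0.38 with HSPC and 9.12, 10.4 and 9.66 in vivo. Replicate 1 of cultured endothelium was the highest library of all and replicates 2 and 3 were the lowest endothelial ones. The groups alone, with HSPC and in vivo stood in rising order without overlap. Cultured stroma and stroma in vivo overlapped at a low level, and stroma alone or with HSPC stayed under 1 FPKM.

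The proximal promoter of Notch4 is shown because it was the 1 member window that held the letters AGGAAG. These letters are 1 form of the site bound by the ETS family, whose factors are active in endothelium. Windows run from 250 bases before the RefSeq start site to 50 after it, 5′ to 3′, and were taken from RefSeq on build GRCm38.p6, which is not the build of the expression files. Promoters were found for 8 of the 10 members, without Heyl and Hes1. The letters AGGAAG (ETS) and TGGGAA (the RBPJ core) were searched on both strands, they can share no more than 1 end base, and matches are in capitals. Shorter forms of the ETS site, such as GGAA, were not searched and may be present in windows without a match. Notch4 (chr17:34564045-34564344, plus strand) held 4 ETS matches, whose leftmost bases lay at -245, -197, -73 and 40 from the start site.
Notch4: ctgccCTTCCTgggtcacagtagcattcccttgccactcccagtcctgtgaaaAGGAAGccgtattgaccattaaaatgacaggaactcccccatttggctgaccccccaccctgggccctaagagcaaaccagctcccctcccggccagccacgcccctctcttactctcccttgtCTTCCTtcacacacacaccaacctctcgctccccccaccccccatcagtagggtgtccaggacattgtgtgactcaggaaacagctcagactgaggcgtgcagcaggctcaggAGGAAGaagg
AGGAAG was found in 1 of 8 member windows, against 35.4% of all 32851 RefSeq windows of this length.

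Notch2, a widely expressed receptor gene, was the counterpart of Notch1 in stroma. Its stromal libraries were at 36.3, 73.2 and 63.3 FPKM in culture, 143, 133 and 131 alone, 126, 116 and 129 with HSPC and 145, 133 and 137 in vivo. Endothelial libraries were at 8.14, 5.18 and 6.29, 9.41, 9.88 and 9.19, 9.57, 8.84 and 9.31 and 22, 20.4 and 27.1 in the same settings. The cell types did not overlap in any setting. Stroma alone and in vivo did not differ beyond their spread, cultured stroma was the lowest stromal group, and endothelium in vivo stood above the 3 cultured endothelial groups.

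Notch3, the receptor gene of mural cells, set stroma in vivo apart from all other groups. Stroma in vivo reached 453, 359 and 391 FPKM. The other stromal libraries were at 1.27, 30.8 and 37.3 in culture, 3.09, 3.02 and 3.12 alone and 18.4, 44.5 and 28.1 with HSPC. Endothelial libraries were at 1.94, 2.83 and 4.11 in culture, listed at 0 in all 3 alone, at 0.20, 0.19 and 0.19 with HSPC and at 20.7, 23.5 and 21.4 in vivo. The lowest of the in vivo stromal libraries stood at 359, against 44.5 in the highest other library. Cultured stroma held 1 library near 1 FPKM and 2 above 30, so its range covered stroma with HSPC in part and endothelium in vivo entirely.

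Mural cell markers also differed between the stromal groups, in both directions. The pericyte gene Rgs5 was at 69.6, 96.1 and 131 FPKM in stroma in vivo and listed at 0 alone and with HSPC, and Des (desmin) was at 41.8, 35 and 45 and listed at 0 in the same groups. Acta2, the smooth muscle actin gene, was at 15.5, 25.4 and 31.1 in vivo and 537, 664 and 664 alone. The 6 listed genes summed to less in vivo, 217 to 347 against 649 to 784 alone and 1696 to 1869 in culture, while their mean log2(FPKM + 1) was 4.92 to 5.56 in vivo, above the 3.45 to 3.62 alone, and 4.26 to 5.35 in culture. All 6 reached a mean of 1 FPKM in stroma in vivo and 3 did alone. In endothelium in vivo all 6 also reached it. Their sum there was 296 to 326 and their mean log2(FPKM + 1) 4.63 to 4.89. Notch3 and Heyl were at 21.9 and 4.16 FPKM on average in endothelium in vivo, and at 401 and 244 in stroma in vivo. The 6 markers of Lepr-positive stroma, the reticular cells around sinusoids, summed to 77191 to 87671 in stroma in vivo and 3186 to 3202 alone, and Lepr itself was at 2789, 2470.0 and 2499 in vivo and listed at 0 alone. Erythroid transcripts were also present in stroma in vivo, with a sum over 6 genes of 18655 to 22354 against 0 to 0.9 alone. The 6 osteoblast genes summed to 45929 to 62244 in vivo and 1747 to 1861 alone, and the 7 granulocyte genes to 1525 to 3309 in vivo with all 7 listed at 0 alone. The part of any of these lists in the Notch values of stroma in vivo was not tested. In such bulk samples, fewer cells of a type and less RNA per cell cannot be told apart.

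Dll4, the Delta ligand gene of arterial and sprouting endothelium, was confined to the endothelial libraries at any sizeable level. Endothelial values were 453, 64.9 and 317 FPKM in culture, 93.3, 87.4 and 90.3 alone, 86.8, 84.2 and 80.5 with HSPC and 375, 418 and 337 in vivo. Among the 12 stromal libraries the highest was 0.79, in culture, and stroma alone and in vivo were listed at 0 throughout. In vivo libraries lay above those alone and with HSPC. The cultured range covered all 3 other endothelial groups, with replicate 2 the lowest endothelial library of all.

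Jag1, a Jagged ligand gene with a broad expression, was found in both cell types. Endothelial libraries were at 801, 196 and 723 FPKM in culture, 180.3, 181 and 172 alone, 47.2, 43.6 and 45.6 with HSPC and 145, 154 and 156 in vivo. Stromal libraries were at 12.1, 39.1 and 37 in culture, 61.5, 61.8 and 61.9 alone, 64.4, 67.5 and 69.7 with HSPC and 96.9, 100.1 and 74.3 in vivo. None of the 8 group ranges touched its neighbour in the order of means. Endothelium with HSPC, which was below every stromal library outside the first culture, was the 1 endothelial group under stroma.

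Jag2, the second Jagged ligand gene, followed Dll4 in cell type. Its endothelial libraries were at 519, 11.2 and 79.5 FPKM in culture, 35.2, 32.9 and 32.3 alone, 18.3, 15.1 and 17 with HSPC and 202, 172 and 193 in vivo. Stroma was listed at 0 alone and was at 0.73, 0 and 0 in culture, 1.58, 2.38 and 1.83 with HSPC and 0.81, 1.01 and 1.1 in vivo. Of the cultured endothelial libraries, replicate 1 was the highest of all 24 and replicate 2 was below every other endothelial library. The mean of cultured endothelium therefore rests on replicate 1.

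Nrarp, a target that feeds back on the Notch complex, was an endothelial gene in all 4 settings. Values in endothelium were 571, 720.1 and 230.2 FPKM in culture, 399, 429 and 456 alone, 438, 448 and 478 with HSPC and 258, 269.9 and 180.1 in vivo. In stroma they were 2.09, 0 and 0 in culture, listed at 0 alone, 0, 0.67 and 0 with HSPC and 2.58, 5.29 and 4.47 in vivo. Endothelium in vivo was below endothelium alone and with HSPC without overlap, and cultured endothelium overlapped all of them.

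The promoter windows of Dll4 (chr2:119325534-119325833, plus strand) and Nrarp (chr2:25180508-25180807, plus strand) are shown as those of the ligand and the target with the sharpest endothelial level, and that of Notch3 (chr17:32166841-32167140, minus strand) as the receptor with the highest stromal level. They are in lower case because neither set of letters was found in them.
Dll4: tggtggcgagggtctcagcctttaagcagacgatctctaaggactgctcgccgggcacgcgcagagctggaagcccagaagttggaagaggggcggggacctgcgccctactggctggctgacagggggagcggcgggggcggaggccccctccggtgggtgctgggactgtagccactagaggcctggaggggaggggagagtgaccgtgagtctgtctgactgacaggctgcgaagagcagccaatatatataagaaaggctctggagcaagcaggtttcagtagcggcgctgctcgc
Nrarp: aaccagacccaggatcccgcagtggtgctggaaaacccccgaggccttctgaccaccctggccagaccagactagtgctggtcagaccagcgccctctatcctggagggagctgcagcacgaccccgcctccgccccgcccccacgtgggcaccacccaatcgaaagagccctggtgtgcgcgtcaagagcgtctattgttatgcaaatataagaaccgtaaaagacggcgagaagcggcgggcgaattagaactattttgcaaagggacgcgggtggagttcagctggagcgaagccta
Notch3: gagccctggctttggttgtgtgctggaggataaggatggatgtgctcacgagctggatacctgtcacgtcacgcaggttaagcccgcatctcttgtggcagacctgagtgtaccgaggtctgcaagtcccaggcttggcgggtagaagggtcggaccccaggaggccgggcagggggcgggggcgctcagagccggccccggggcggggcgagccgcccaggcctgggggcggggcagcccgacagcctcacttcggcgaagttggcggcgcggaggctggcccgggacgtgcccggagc
TGGGAA was in 0 of 8 member windows, against 25.6% of all windows. This says only that these letters are not in these stretches.

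Hes1, a repressor gene that answers to Notch and to other signals, was present in all groups. Endothelial libraries were at 235, 193 and 290.4 FPKM in culture, 212, 193 and 237 alone, 261, 219 and 237 with HSPC and 305, 335 and 349.6 in vivo. Stromal libraries were at 60.1, 191 and 179 in culture, 90.8, 97.5 and 90.6 alone, 144, 108 and 126 with HSPC and 388, 704 and 308 in vivo. Stroma in vivo had the highest mean and the widest spread, set by replicate 2, and it overlapped endothelium in vivo. The 3 cultured endothelial groups overlapped each other.

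Heyl, a repressor gene of the Hey family known from mural cells, was nearly a gene of 1 group. It was at 332, 171 and 229.7 FPKM in stroma in vivo and at 2.89, 5.19 and 4.4 in endothelium in vivo. Of the 18 cultured libraries, 17 were listed at 0 and cultured endothelial replicate 3 was at 0.79. In vivo stroma was above in vivo endothelium in every library. The stromal libraries with the highest Heyl and the highest Notch3 were both replicate 1 in vivo.

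**Figure D1:**
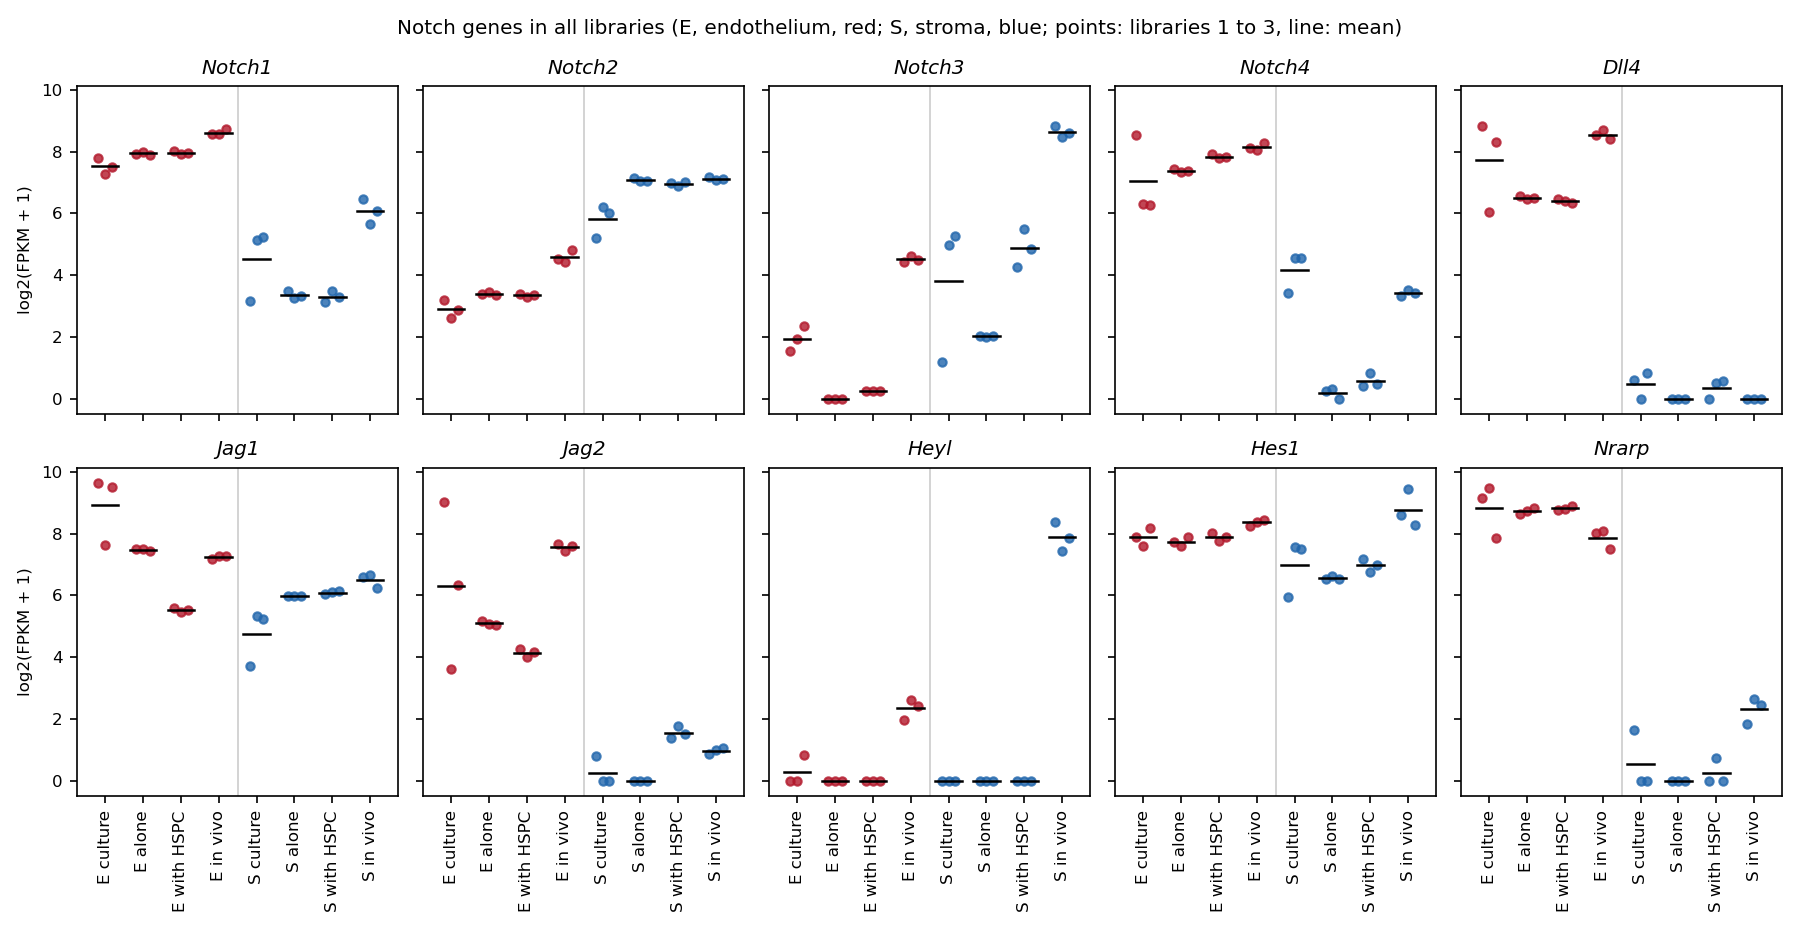
Levels of the 10 Notch genes in the 24 libraries, as log2(FPKM + 1) on the y axis, with endothelium in red and stroma in blue. Each point is a library and the line is the mean of 3. Dll4, Jag2 and Nrarp are low in stroma, with means of up to 2.31 on this scale (Nrarp in vivo). Notch2 is higher in stroma, and Notch3 and Heyl are highest in stroma in vivo, at 401 and 244 FPKM on average.

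Because FPKM are scaled by length, the make-up of the 4 receptors and of the 3 member ligands could be read within a library. The 4 receptor genes summed to 422 ± 9.07 FPKM in endothelium alone and 724 ± 52.7 in vivo, and to 148 ± 6.91 in stroma alone and 617 ± 71.6 in vivo. Endothelium was a Notch1 and Notch4 tissue: Notch1 made up 58.3% ± 1.44 alone, 51.2% ± 0.066 with HSPC and 54.3% ± 0.811 in vivo, and Notch4 39.5% ± 1.5, 46.8% ± 0.0761 and 39.4% ± 0.946. In stroma the leading receptor changed with the setting. Notch2 held 91.6% ± 0.235 of the receptor sum alone, 76% ± 7.57 with HSPC and 22.5% ± 1.64 in vivo, where Notch3 held 64.9% ± 0.282. With HSPC, the Notch3 share in the 3 stromal libraries was 12.1%, 25.9% and 16.9%, against 2.08% ± 0.0988 alone.

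The member ligands shifted as well. Their sum over Dll4, Jag1 and Jag2 in endothelium was 302 ± 7.21 FPKM alone, 146 ± 5.35 with HSPC and 717 ± 29.5 in vivo. Among these members, Jag1 led alone with 58.9% ± 0.999 of the sum, and Dll4 led with HSPC at 57.4% ± 1.38 and in vivo at 52.5% ± 3.55. Those 2 shares of Dll4 had different makings. With HSPC the level of Dll4 itself was 83.8 ± 3.19 FPKM, beside 90.3 ± 2.96 alone, while in vivo it was 377 ± 40.6. In stroma, Jag1 made up 96.2% or more of this member sum on average in every setting. Further ligand genes are not in these sums. In endothelium, the Delta ligand gene Dll1 was at 581 ± 32.2 FPKM alone, 399 ± 12.6 with HSPC and 150 ± 16.1 in vivo. It was above each of the member ligands alone and with HSPC.

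**Figure D2:**
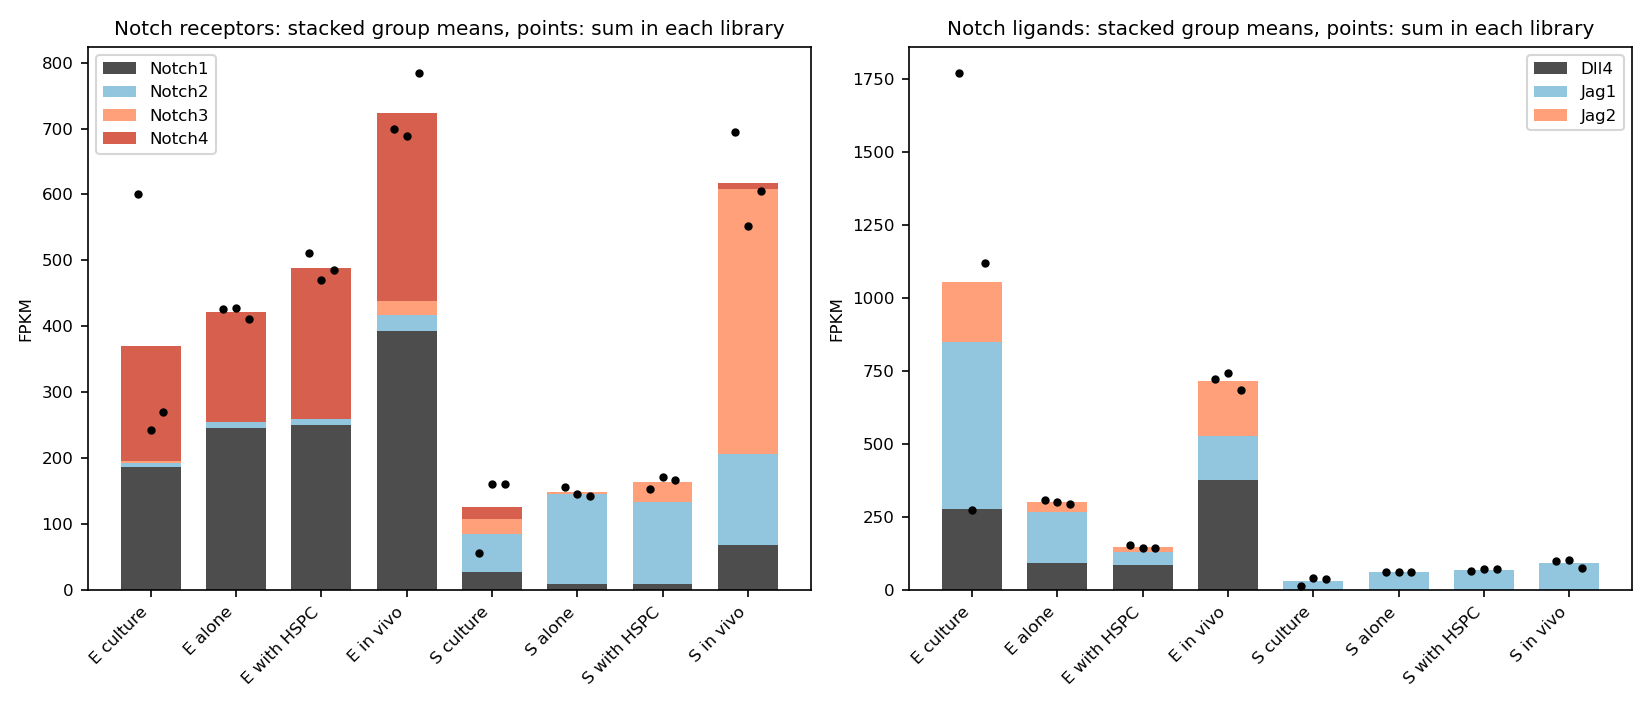
Stacked mean FPKM of the 4 receptor genes (left) and the 3 ligand genes (right) in the 8 groups, E for endothelium and S for stroma, with points for the sum in each of 3 libraries. The receptor sum is led by Notch2 in stroma alone and by Notch3 in stroma in vivo. The wide points of cultured endothelium span 272 to 1773 FPKM for the ligands.

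The cell types were compared within each setting. Endothelium was higher in Notch1, Notch4, Dll4, Jag2 and Nrarp in all 4 settings, and lower in Notch2 in all 4. Jag1 changed sides, higher in endothelium in the 3 settings without HSPC, and lower with HSPC. Alone, 9 members were tested and all 9 were called, 7 higher and 2 lower, where 86.7% of all tested genes were called (43.8% higher and 42.8% lower). With HSPC it was 9 of 9, 6 higher and 3 lower, beside 83.6% (45.9% and 37.7%). In vivo 9 of 10 were called, 6 higher and 3 lower, beside 74.2% (39.2% and 35.1%). In culture it was 7 of 9, 6 higher and 1 lower, beside 21.1% (10.1% and 11.1%). With so many genes called in 3 of the settings, these counts are close to the background there. Medians of the log2 difference over the tested members were 1.65 in vivo, 2.61 with HSPC, 4.60 alone and 3.02 in culture, and over all tested genes 0.05, 0.10, 0.02 and 0.06.

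The largest gaps were those of genes low in stroma. Nrarp differed by 8.74 ± 0.06 alone (limma adjusted p = 3.42e-11), 8.58 ± 0.20 with HSPC and 5.55 ± 0.24 in vivo (adjusted p = 5.45e-07), where stroma was at 4.11 ± 1.39 FPKM. The gap of Dll4 was 6.51 ± 0.06 alone and 8.56 ± 0.10 in vivo (adjusted p = 4.27e-09). Notch4 was 29.3 times as high in endothelium as in stroma in vivo, a log2 difference of 4.74 ± 0.09 (adjusted p = 1.54e-08). For Notch1 the ratio of mean FPKM was 26.7 alone, 27.9 with HSPC and 5.77 in vivo, where the log2 difference was 2.55 ± 0.19 (adjusted p = 1.05e-05).

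On the stromal side, Notch2 was 14.3 times as high in stroma as in endothelium alone (log2 difference -3.70 ± 0.05, adjusted p = 6.3e-10) and 5.97 times in vivo. Notch3 was 18.3 times as high in stroma in vivo (-4.13 ± 0.10, adjusted p = 3.43e-08), and Heyl 58.8 times (-5.55 ± 0.26, adjusted p = 9.18e-07). Jag1 was 2.88 times as high in endothelium alone (1.51 ± 0.03) and 1.48 times as high in stroma with HSPC (-0.55 ± 0.05, adjusted p = 4.53e-05), a call that was lost with the spread of all 8 groups (adjusted p = 0.223), as was that in vivo (0.109). The Hes1 difference passed alone (1.19 ± 0.07) and with HSPC (0.92 ± 0.11) but not in culture (0.89 ± 0.46, adjusted p = 0.223) or in vivo (-0.41 ± 0.28, adjusted p = 0.212).

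The first cultures gave wider errors. Notch3 differed there by -1.86 ± 1.08 (adjusted p = 0.272), and by -3.18 (adjusted p = 0.00345) without stromal replicate 1. The calls of Notch4 (2.87 ± 0.68, adjusted p = 0.0313) and Jag2 (6.06 ± 1.27, adjusted p = 0.0213) did not survive every omission. Notch4 was lost without endothelial replicate 2 (adjusted p = 0.0508) or any single stromal replicate (0.0696, 0.0817 and 0.0768 without replicates 1 to 3). Jag2 was lost without endothelial replicate 3 (0.0652) or stromal replicate 2 or 3 (0.0775 and 0.074). In the stromal library with the highest endothelial marker sum, cultured replicate 1 at 373 FPKM, Notch4 was at 9.68 and Notch1 at 7.95, the lowest of that group, while Jag2 (0.73), Nrarp (2.09), Hey1 (13.9) and the arterial marker Gja4 (4.76) were above 0 in this library and listed at 0 in replicates 2 and 3. The part of endothelial RNA in these values was not tested.

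**Figure D3:**
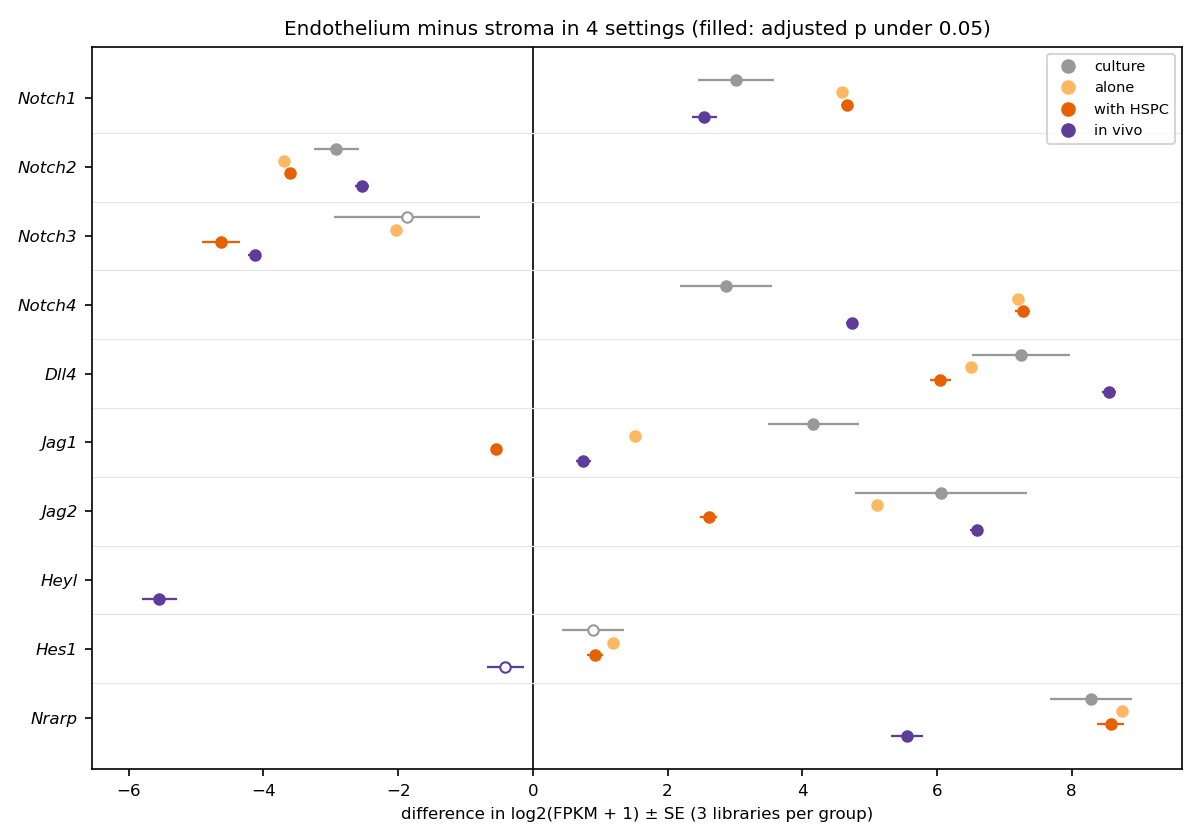
Endothelium minus stroma for each Notch gene in the 4 settings, as a difference in log2(FPKM + 1) ± SE over 3 libraries per group, with filled points for adjusted p under 0.05. Jag1 lies right of 0 in the 3 settings without HSPC and left of it with HSPC, at -0.55, and Heyl has a point in vivo at -5.55 and none elsewhere because it was too low to test.

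Endothelium in vivo was set against endothelium alone, whose libraries correlated at 0.9975 or more, as did those with HSPC. In vivo 8 members were higher and 2, Jag1 and Nrarp, were lower, so 10 of 10 were called where 82.3% of all tested genes were (39.1% higher and 43.3% lower). Dll4 was 4.17 times as high in vivo (log2 difference 2.04 ± 0.08, adjusted p = 2.12e-07) and Jag2 5.65 times (2.46 ± 0.07, adjusted p = 4.59e-08). Notch1, Notch2 and Notch4 rose to 1.6, 2.44 and 1.72 times their levels alone, by 0.67 ± 0.06, 1.19 ± 0.11 and 0.77 ± 0.07. Notch3 and Heyl, listed at 0 in all 3 libraries alone, were higher by 4.51 ± 0.10 and 2.34 ± 0.18. Nrarp was 1.81 times as high alone as in vivo (-0.88 ± 0.15, adjusted p = 0.000804), and Jag1 differed by -0.23 ± 0.05 (adjusted p = 0.00298). With the spread taken from all 8 groups 5 of the 10 remained, and Notch1, Notch4, Jag1, Hes1 and Nrarp did not pass (adjusted p = 0.0933, 0.0971, 0.621, 0.0919 and 0.0564). Sinusoidal markers moved with this comparison, with a sum over 6 genes of 6475 to 7796 FPKM in vivo and 464 to 534 alone, as did mural markers (296 to 326 against 8.18 to 10.1), and their part in the Notch values was not tested.

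In stroma the step from alone to in vivo was larger for most members. Of 8 tested members, 7 were higher in vivo and Notch2 was not called, beside 82.6% of all genes (34.9% higher and 47.7% lower). Notch3 was 130.3 times as high in vivo (log2 difference 6.62 ± 0.09, adjusted p = 1.32e-09). Heyl went from listed at 0 to 244 ± 81.4 FPKM (7.89 ± 0.21, adjusted p = 3.8e-08). Notch1 rose to 7.41 times (2.73 ± 0.19), Hes1 to 5.02 times (2.23 ± 0.27, adjusted p = 0.000127) and Jag1 to 1.47 times (0.53 ± 0.11, adjusted p = 0.00243). Notch4 (3.24 ± 0.12) and Nrarp (2.31 ± 0.21) also rose, to levels of 9.74 ± 0.658 and 4.11 ± 1.39 FPKM. The Notch2 difference was 0.03 ± 0.05 (adjusted p = 0.626), and it became 0.25 (adjusted p = 0.00419) under trimmed-mean scaling, which moved the median of all genes from -0.16 to 0.06. The 10 endothelial markers moved with this comparison at a low level. Their sum was 25.4 to 36.1 FPKM in vivo and 18.1 to 18.7 alone, their mean log2(FPKM + 1) 1.33 to 1.74 and 0.63 to 0.65, and 1 of them was listed at 0 throughout in vivo and 8 alone. Their part in the rise of Notch4 and Nrarp was not tested. Pecam1, a general endothelial gene, was at 1.13, 1.05 and 2.37 in vivo and listed at 0 alone.

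Whether the step to in vivo differed between the cell types was tested as an interaction over 12 libraries. All 10 members were called, 3 higher and 7 lower as endothelial minus stromal change, beside 75.4% of all genes (40.2% higher and 35.2% lower). Notch1 (-2.05 ± 0.22, adjusted p = 4.16e-06), Hes1 (-1.60 ± 0.32, adjusted p = 0.000724), Nrarp (-3.19 ± 0.27), Notch4 (-2.46 ± 0.13), Heyl (-5.55 ± 0.30) and Jag1 (-0.76 ± 0.13, and adjusted p = 0.264 with the spread of all 8 groups) changed more upward in stroma. Dll4 (2.04 ± 0.11, adjusted p = 1.53e-08) and Notch2 (1.16 ± 0.12, adjusted p = 4.16e-06) changed more upward in endothelium, and stromal Dll4 was listed at 0 in both groups. Heyl was listed at 0 alone in both cell types, so its value repeats the in vivo difference between them. For Notch3 and Jag2 the sign depended on the pseudocount, because 1 of the 4 groups was listed at 0. It was -2.10 and 1.48 at a pseudocount of 1 and 0.80 and -0.92 at 0.1, so no direction is read from them.

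Against the first cultures fewer members passed. In endothelium 5 of 10 were called, beside 54.4% of all genes (24.3% higher and 30.1% lower). Notch1 (1.09 ± 0.15), Notch2 (1.69 ± 0.22), Notch3 (2.56 ± 0.24, adjusted p = 0.000549) and Heyl (2.06 ± 0.32) were higher in vivo and Jag1 lower (-1.67 ± 0.54, adjusted p = 0.0399). The Jag1 call was lost without cultured replicate 1 (adjusted p = 0.0929) or 3 (0.0944), without any single in vivo replicate (0.105 to 0.112) and under trimmed-mean scaling (0.0615) and quantile normalization (0.0549). Dll4 (0.83 ± 0.70) and Jag2 (1.25 ± 1.27) did not pass. Jag2 passed without cultured replicate 1, at 2.60 (adjusted p = 0.0387), and so did Notch4, at 1.87 (0.000362). Leaving out cultured replicate 3 brought in Hes1, at 0.62 (adjusted p = 0.0122), and Nrarp, at -1.46 (0.00439).

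In stroma 6 of 8 tested members were higher in vivo than in the first culture and none was lower, beside 58.0% of all genes (25.1% higher and 32.8% lower). Notch3 differed by 4.83 ± 1.09 (adjusted p = 0.0114), Heyl by 7.89 ± 0.25 (adjusted p = 8.28e-06), Notch2 by 1.31 ± 0.26 (adjusted p = 0.0074) and Jag1 by 1.74 ± 0.46 (adjusted p = 0.0194). The count fell to 3 without stromal in vivo replicate 2, where Jag1, Hes1 and Nrarp no longer passed (adjusted p = 0.0741, 0.104 and 0.0924). It was 4 without in vivo replicate 1 or 3. Without cultured replicate 1 it rose to 8, when Notch1 passed at 0.88 (adjusted p = 0.0119) and Notch4 was lower in vivo at -1.13 (0.000178). The comparisons of in vivo with culture and with alone share their in vivo libraries and are not independent of each other.

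With HSPC, both Jagged ligand genes of endothelium were lower and the receptor gene Notch4 was higher. Jag1 fell to 0.256 of its level alone, 45.5 ± 1.8 against 178 ± 5.19 FPKM (log2 difference -1.94 ± 0.04, adjusted p = 2.01e-08). Jag2 fell to 0.502 of it (-0.96 ± 0.07, adjusted p = 1.39e-05), and Notch4 rose to 1.37 times (0.46 ± 0.04, adjusted p = 3.85e-05). These 3 were the calls among 8 tested members, beside 58.2% of all genes (33.5% higher and 24.7% lower), which is a larger share. With the spread of all 8 groups Jag1 remained, and Notch4 and Jag2 did not (adjusted p = 0.533 and 0.466). Notch1 (0.03 ± 0.04), Notch2 (-0.04 ± 0.07), Hes1 (0.16 ± 0.08) and Nrarp (0.09 ± 0.05, adjusted p = 0.193) did not pass. Dll4 differed by -0.11 ± 0.04 (adjusted p = 0.0569), with all 3 libraries below those alone, and passed under trimmed-mean scaling (-0.16, adjusted p = 0.00804).

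In stroma the receptor that moved was Notch3, from 3.08 ± 0.0513 to 30.4 ± 13.2 FPKM with HSPC (log2 difference 2.86 ± 0.28, adjusted p = 0.000138). Hes1 rose to 1.36 times (0.43 ± 0.10, adjusted p = 0.00932), and Jag2 from listed at 0 to 1.93 ± 0.409 FPKM (1.54 ± 0.16, adjusted p = 0.000212). In all, 3 of 6 tested members were called, beside 58.3% (24% higher and 34.3% lower). With the spread of all 8 groups Jag2 and Hes1 did not pass (adjusted p = 0.135 and 0.355). Jag1 (0.12 ± 0.05, adjusted p = 0.0604), Notch1 (-0.04 ± 0.12) and Notch2 (-0.13 ± 0.06, adjusted p = 0.0893) did not pass. Notch2 was lower with HSPC in all 3 libraries.

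Blood cell transcripts moved with the addition of HSPC. The 7 granulocyte genes summed to 1406 to 1598 FPKM in endothelium with HSPC and 48.1 to 54.8 alone, with 6 of 7 listed at 0 alone. In stroma they summed to 595 to 792 with HSPC and all 7 were listed at 0 alone. Pan-hematopoietic genes, 8 in number, summed to 178 to 209 against 72 to 79.9 in endothelium and 24.6 to 33 against 0.47 to 1.88 in stroma. Endothelial markers in stroma were at 36.1 to 61.7 with HSPC and 18.1 to 18.7 alone. In stroma with HSPC, Notch4, Dll4 and Nrarp stayed under 1 FPKM in each library. Jag2 was at 1.58, 2.38 and 1.83 there and listed at 0 alone, and all Notch4 libraries were above those alone. The 8 arterial markers of endothelium, which do not include a Notch gene, summed to 648 to 731 with HSPC and 1336 to 1476 alone. Within this list, Gja5, an arterial gap junction gene, was at 82.9, 50.6 and 57.7 against 312, 276 and 282. Sox17, of the same list, went the other way, at 187, 181 and 180 against 161, 137 and 138. The 6 sinusoidal markers of endothelium summed to 1094 to 1106 with HSPC and 464 to 534 alone. In stroma, the 6 mural markers summed to 304 to 357 with HSPC and 649 to 784 alone. Their mean log2(FPKM + 1) was 2.92 to 3.16 with HSPC and 3.45 to 3.62 alone. The part of all these transcripts in the Notch values was not tested.

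The response to HSPC differed between the cell types for 4 of 9 tested members, all in the lower direction, beside 57.0% of all genes (36.0% higher and 21.1% lower). As endothelial minus stromal change it was -2.06 ± 0.06 for Jag1 (adjusted p = 1.89e-09), -2.50 ± 0.15 for Jag2 (adjusted p = 1.78e-07), -2.60 ± 0.32 for Notch3 (adjusted p = 3.96e-05) and -0.46 ± 0.17 for Dll4 (adjusted p = 0.0396). Jag1 and Jag2 fell in endothelium, while in stroma Jag2 rose and Jag1 did not pass. The Dll4 value rests on stromal levels under 0.5 FPKM and was lost without 11 of the 12 libraries in turn (adjusted p up to 0.0887), all but stroma with HSPC replicate 1. With the spread of all 8 groups Jag1 remained, and Jag2 and Notch3 missed too (adjusted p = 0.117 and 0.0615). The Dll4 call was also lost at a pseudocount of 0.1 (-1.75, adjusted p = 0.0657).

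**Figure D4:**
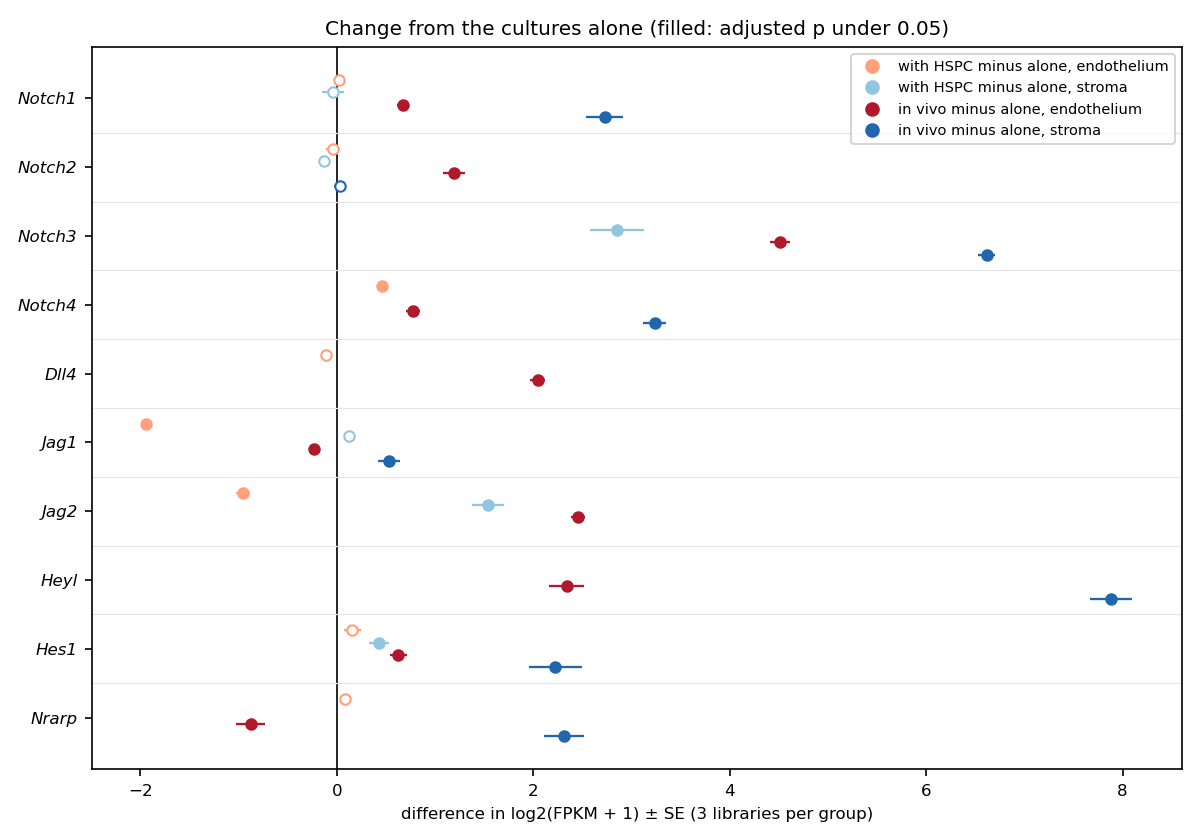
Change of each Notch gene from the cultures alone, with HSPC (light) and in vivo (dark), in endothelium (red) and stroma (blue), as a difference in log2(FPKM + 1) ± SE over 3 libraries per group and filled for adjusted p under 0.05. With HSPC, endothelial Jag1 lies at -1.94 and stromal Notch3 at 2.86, and in vivo stromal Notch3 and Heyl lie at 6.62 and 7.89.

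The rest of the pathway was read from 45 genes in 5 lists, all found in the files: 5 further ligands, 15 genes of receptor cutting and sugar transfer, 8 of the nuclear complex, 12 of trafficking and turnover and 5 further targets. From alone to in vivo, 19 of 39 tested rose and 12 fell in endothelium, beside 39.1% and 43.3% of all tested genes, and 14 of 40 rose and 19 fell in stroma, beside 34.9% and 47.7%. With HSPC, 15 of 38 rose and 9 fell in endothelium, beside 33.5% and 24.7%, and 9 of 39 rose and 16 fell in stroma, beside 24% and 34.3%. Median log2 differences of the tested genes were 0.22, -0.13, 0.06 and -0.07, beside -0.06, -0.16, 0.04 and -0.06 over all tested genes.

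Among the further ligands, Dll1, a Delta ligand gene, had the highest level of the 8 ligand genes in endothelium alone and with HSPC. It was at 572, 617 and 555 FPKM alone, 405, 385 and 408 with HSPC and 142, 140.2 and 169 in vivo, and at most 2.45 in any stromal library. It fell with HSPC (-0.54 ± 0.05, adjusted p = 2.08e-05), where Dll4 differed by -0.11 and did not pass. It was lower in vivo than alone (-1.95 ± 0.08, adjusted p = 3.38e-07), where Dll4 was higher. Dner, a non-canonical ligand gene, rose with HSPC in endothelium from 23.4 ± 1.09 to 41.5 ± 1.72 and was listed at 0 in vivo. Dlk1, a ligand-like inhibitor gene of preadipocytes, rose with HSPC in stroma from 13.5 ± 1.27 to 58.2 ± 15.4 (2.01 ± 0.17, adjusted p = 8.76e-05) and was near 0 in vivo.

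In receptor handling, the fringe genes Lfng and Mfng and the protease gene Psen2 were higher in endothelium in vivo than alone. Lfng rose in stroma from 7.32 ± 0.378 to 273 ± 69 FPKM (5.02 ± 0.16, adjusted p = 7.66e-08) and in endothelium from 43.6 ± 3.57 to 239 ± 28.8 (2.42 ± 0.10). Mfng rose in endothelium from 4.16 ± 0.842 to 354 ± 21.9 (6.12 ± 0.12, adjusted p = 8.95e-09) and was under 1 FPKM in every stromal library. Psen2, a catalytic subunit of the gamma-secretase that makes the second cut, rose in endothelium from 43 ± 1.95 to 245 ± 31.9 (2.48 ± 0.09). The third fringe gene, Rfng, differed by 0.63 ± 0.05 in endothelium and 0.75 ± 0.05 in stroma (adjusted p = 1.09e-05 and 5.3e-06). Adam10, the protease of the first ligand-driven cut, rose with HSPC in endothelium from 582 ± 40.2 to 963 ± 24.2 (0.73 ± 0.05).

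The promoter window of Lfng (chr5:140607091-140607390, plus strand) is shown because the gene rose beside Notch3 and Heyl in stroma in vivo and its window holds 2 RBPJ matches, on the minus strand at -135 and on the plus strand at -108, in capitals as TTCCCA and TGGGAA.
Lfng: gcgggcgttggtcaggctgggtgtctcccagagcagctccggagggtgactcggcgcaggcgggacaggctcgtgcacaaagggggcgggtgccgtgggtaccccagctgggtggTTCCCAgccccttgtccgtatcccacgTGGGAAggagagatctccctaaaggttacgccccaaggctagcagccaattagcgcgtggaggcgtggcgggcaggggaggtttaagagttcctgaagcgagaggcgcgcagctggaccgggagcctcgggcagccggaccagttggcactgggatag
A match is a description of letters and no evidence of binding. TGGGAA was in 25.6% of all windows. The window of Hey2, which was lower in endothelium in vivo than alone, also held 2 matches. That of Notch3 held none, and Heyl had no window.

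In the nuclear complex, Rbpj, the DNA-binding partner of cut Notch, rose with HSPC in stroma from 91.4 ± 0.105 to 221 ± 35.4 FPKM (1.25 ± 0.10, adjusted p = 7e-05), where its coactivator Maml2 fell from 77.9 ± 0.666 to 29.8 ± 4.29 (-1.36 ± 0.10). In endothelium Rbpj ran from 40.6 to 43.8 on average over the 4 settings. Maml3 rose in endothelium from 2.16 ± 0.178 alone to 9.71 ± 0.49 with HSPC and 35.2 ± 3.22 in vivo. Of the turnover genes, Fbxw7, which marks the freed receptor for destruction, was lower in endothelium with HSPC (-0.58 ± 0.03) and in vivo (-1.44 ± 0.06) than alone. Mib2, a ligase that acts on ligands, was higher in endothelium in vivo than alone (2.06 ± 0.08).

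The Hey targets split. Hey1 rose in endothelium from 21.2, 18 and 21.6 FPKM alone to 51.6, 47.7 and 45.9 with HSPC (1.22 ± 0.08, adjusted p = 4.43e-06) and 129, 107 and 59 in vivo (2.15 ± 0.26). Hey2 fell from 26.8, 22 and 24.5 alone to 6.21, 6.42 and 5.73 with HSPC (-1.83 ± 0.09, adjusted p = 8e-07) and 2.66, 2.86 and 2.15 in vivo (-2.84 ± 0.12). In stroma Hey1 rose in vivo as Heyl did, from 1.61 ± 0.163 to 36.1 ± 3.72 (3.83 ± 0.10, adjusted p = 3.61e-08). Cultured endothelial replicate 2 was low in both, at 11.6 for Hey1 and listed at 0 for Hey2, against 338 and 308.8 and 40.8 and 61.3 in replicates 1 and 3. That library was also below replicates 1 and 3 in Dll4, Jag1 and Jag2. In the target Nrarp it was above them, at 720.1 FPKM against 571 and 230.2.

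**Figure D5:**
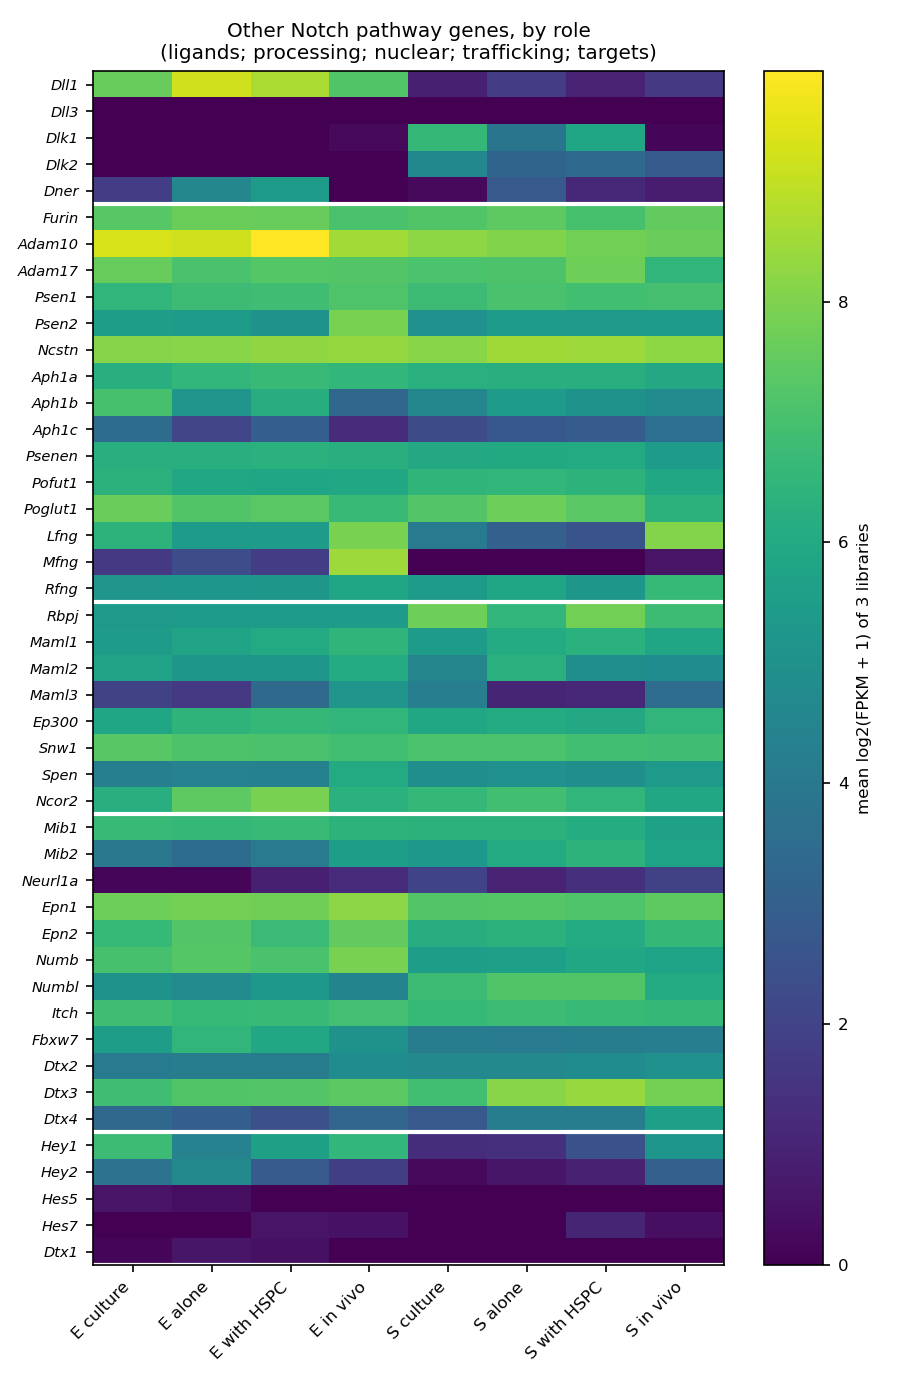
Mean log2(FPKM + 1) of 3 libraries for the 45 further pathway genes (rows, by role, separated by white lines) in the 8 groups (columns, E for endothelium and S for stroma). Dll1 is bright in all 4 endothelial columns and Mfng in the in vivo one, at 354 FPKM, and Dlk1 is bright in no endothelial column.

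For each member the genes with the most similar pattern were sought over the 24 libraries among 12995 genes, by Pearson's r of log2(FPKM + 1). The points share their groups, so r reflects mainly the 8 group levels and is given without a p. Notch1 was closest to Plxnd1 (0.9896), the receptor gene of an endothelial semaphorin, then Hoxb4 (0.9839) and Card10 (0.9831). Notch4 was closest to Dysf (0.9755), Dll4 to Cmtm8 (0.9844), Tmem88 (0.9839) and the arterial factor gene Sox17 (0.9838), and Nrarp to Afap1l1 (0.9896), Icam2 (0.9869) and Fgd5 (0.9868). Notch2 followed the type I collagen genes Col1a1 (0.9894) and Col1a2 (0.9871). Jag2 had Sema3g (0.9608), Rbp7 (0.9587) and the member Dll4 (0.9577). Heyl was closest to P2rx2 (0.9948), Cd83 (0.9948) and Akr1c19 (0.9946), all of which were at 3.01 FPKM or less on average in endothelium in vivo and at 137, 15.6 and 113 in stroma in vivo. Lower values were reached by Notch3 (Klf9, 0.9442), Hes1 (Aoc2, 0.914) and Jag1 (Foxo1, 0.879). Of these, Hes1 and Jag1 were present in every library of both cell types.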

How the data were processed

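PolyA RNA of 24 libraries was measured by paired-end sequencing. The deposited FPKM are the authors' values, for which the submitters' processing notes name TopHat, Cufflinks and mm9 without versions. Each file gives 1 FPKM per gene symbol to 2 decimals, and totals exceed those usual for FPKM, so the authors may have rescaled them, which no source states. No step that single reads leave was found at low values (the fullest bin of 0.05 log2 held 4.32% to 8.38% of values over 24 library pairs), so depth is unknown, and the spread between libraries is the only measure of error. Of 77 ribosomal protein genes, 1 was listed at 0 in all libraries and 4 in at least 1.

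Groups came from titles. With limma 3.58.1 in R 4.3.3 (lmFit, eBayes with a trend) on log2(FPKM + 1), each of 10 comparisons was fitted on its own 6 libraries and 2 interactions on 12, since spreads differed between groups. Tested genes reached an FPKM of 1 in 3 or more of the fitted libraries, with Benjamini-Hochberg adjustment over all of them and calls under 0.05. The fits were tested on simulated data. Alternatives were a pseudocount of 0.1, no filter, quantile normalization, scaling by a trimmed mean (trims of 0.3 and 0.05), the spread from all 8 groups, weights by group, a replicate block, and each library left out. The members, the 45 pathway genes and the 85 markers in 12 lists were chosen with earlier results of these data known. Named were the members, up to 3 called pathway genes per role and comparison with the largest change and a mean FPKM of at least 5, markers, and the 3 genes most alike to each member. Promoter windows came from RefSeq (GRCm38.p6). Plots used matplotlib 3.10.9 under Python 3.11.15. Reads and isoforms were not used here.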

Additional observations from a re-analysis of the deposited data

Results flagged for a closer look

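The change with HSPC differed between endothelium and stroma for 4 members by the interaction test of limma, given here as endothelial minus stromal change on log2(FPKM + 1). It was -2.60 for Notch3, which was under 0.3 FPKM in every endothelial library alone or with HSPC. The value was -0.46 for Dll4, whose stromal levels were under 0.5 FPKM, -2.06 for Jag1 and -2.50 for Jag2.

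The change from alone to in vivo differed between the cell types for all 10 members by the same kind of test. Stroma changed more upward in Notch1 (-2.05), Notch4 (-2.46), Jag1 (-0.76), Heyl (-5.55), Hes1 (-1.60) and Nrarp (-3.19), and endothelium in Notch2 (1.16) and Dll4 (2.04). Notch3 (-2.10) and Jag2 (1.48) changed sign with the pseudocount. Heyl was listed at 0 alone in both cell types, so its value is that of the in vivo difference between them. Any difference between culture and isolation from marrow enters these values.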

How the results depend on the processing

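Over the alternatives other than left-out libraries, 698 single-gene results of the members kept their direction and side of the threshold, 25 lost a call, 17 gained one and 2 reversed. Those 2 were the in vivo interaction of Notch3 (0.80) and of Jag2 (-0.92) at a pseudocount of 0.1, where groups listed at 0 weigh more. With each library left out, 706 were kept, 32 lost and 12 gained a call and 0 reversed. With the spread from all 8 groups, the members called fell to 5 in endothelium in vivo against alone, to 1 with HSPC in endothelium, to 1 in stroma and to 1 for the HSPC interaction. Counts over all genes then moved from 2801 to 7666 for the cell types in culture, from 7449 to 1867 and from 7588 to 3614 with HSPC in endothelium and stroma, and from 7996 to 2274 for their interaction. Without 1 library, members called ranged from 5 to 7 in culture, 9 to 9 alone, with HSPC and in vivo, 4 to 6 and 3 to 8 for in vivo against culture in endothelium and stroma, 10 to 10 and 7 to 7 for in vivo against alone, 3 to 4 in each HSPC comparison and their interaction, and 10 to 10 for the in vivo interaction. The count of all genes in culture was 1853 without endothelial replicate 2 and 1199 and 1321 without stromal replicates 2 and 3. Trimmed-mean scaling moved the share of higher calls from 44.7% to 56.8% and from 43.4% to 57.4% for in vivo against culture in endothelium and stroma, from 42.3% to 53.7% for stroma in vivo against alone and from 63.1% to 52.2% for the HSPC interaction, and quantile normalization from 57.5% to 46.0% with HSPC in endothelium. Under trimmed-mean scaling, the order of the 8 groups was kept for 5 of 10 members and the highest group for 9.

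The replicate number was tested as a block. Same-numbered libraries deviated together with correlations of -0.12 to 0.16. In 0 of 10 comparisons did every library correlate best with its own number. No pairing by number was seen, and whether same-numbered libraries share an animal or a preparation cannot be decided from these correlations. With the block, Notch4 in culture (adjusted p = 0.0777), Nrarp in stroma in vivo against culture (0.0637) and Dll4 in the HSPC interaction (0.054) lost their calls and Nrarp in endothelium in vivo against culture gained one (0.0404).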
